A study of Mus musculus with 5 samples.

Results

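The 43 genes described here carry out or restrain the cell cycle. They were chosen by gene symbol from textbook knowledge of the cycle, not by a cut on measured values. Earlier results of these data were known when they were chosen. All 43 were found among the 49315 genes of the deposited table. They fall into 21 genes of mitosis, 18 genes of the G1/S transition and S phase, and 4 inhibitors of cyclin-dependent kinases.

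The data are poly(A) RNA-seq of endothelial cells taken from mouse lung, with 3 WT libraries and 2 TET2KO libraries. WT mice carried no knockout, and TET2KO mice lacked TET2, an enzyme that oxidises 5-methylcytosine in DNA, in endothelium. Angiotensin II, a peptide that constricts vessels, had been infused into the mice of both groups for 28 days, so no library shows the genes without it. The question the design poses is how loss of endothelial TET2 changes the transcriptome under Angiotensin II. The labels do not give the strain, the age, the promoter that drives the deletion, the exons removed, or the way the cells were isolated. They do not say that the libraries came from separate animals, so p-values measure the spread between these libraries, which may be technical.

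A dividing cell passes from G1 into S phase, where it copies its DNA, and then through G2 into mitosis. The E2F transcription factors, once freed from the retinoblastoma protein, switch on the replication genes. Most mitotic genes are switched on later through CHR elements and CCAAT boxes in their promoters. The inhibitors p21, p27, p16 and p18 block the cyclin-dependent kinases, and most endothelial cells of the adult lung are quiescent.

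The sequences below are examples of promoters of mitotic and S phase genes. Each line gives the 150 bases before the RefSeq start (build GRCm38.p6), read 5′ to 3′ on the gene's own strand. They were picked from the windows that lie outside the gene as GENCODE annotates it. Capitals mark matches on either strand to a CHR-type motif (TTTGAA or TTTAAA), to CCAAT, and to an E2F-type motif (TTTCCCGC or TTTGGCGC). The first 4 genes are mitotic and the last 3 belong to S phase. Each of the last 3 holds an E2F-type match, as do 7 of the 16 S phase windows described below. None of the 3 has a CHR-type motif in the printed bases, while 5 of the 16 windows hold one. Mcm5 is among these 5, with a CHR-type motif 221 bases before the start, outside the printed bases.
Mki67, chr7:135716380-135716529, minus strand: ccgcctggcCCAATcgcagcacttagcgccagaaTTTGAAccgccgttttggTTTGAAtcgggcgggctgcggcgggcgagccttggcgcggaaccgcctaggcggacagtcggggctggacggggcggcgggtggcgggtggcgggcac
Top2a, chr11:99024190-99024339, minus strand: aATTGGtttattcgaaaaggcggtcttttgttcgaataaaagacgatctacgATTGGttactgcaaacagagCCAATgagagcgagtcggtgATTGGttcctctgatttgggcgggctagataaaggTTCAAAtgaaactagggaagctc
Plk1, chr7:122159285-122159434, plus strand: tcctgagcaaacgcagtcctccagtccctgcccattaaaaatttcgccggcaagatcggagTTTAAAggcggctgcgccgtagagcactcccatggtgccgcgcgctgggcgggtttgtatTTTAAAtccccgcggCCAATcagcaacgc
Kif11, chr19:37376232-37376381, plus strand: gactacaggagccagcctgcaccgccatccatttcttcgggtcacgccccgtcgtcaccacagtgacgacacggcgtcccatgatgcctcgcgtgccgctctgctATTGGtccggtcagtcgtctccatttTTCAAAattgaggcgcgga
Mcm5, chr8:75109359-75109508, plus strand: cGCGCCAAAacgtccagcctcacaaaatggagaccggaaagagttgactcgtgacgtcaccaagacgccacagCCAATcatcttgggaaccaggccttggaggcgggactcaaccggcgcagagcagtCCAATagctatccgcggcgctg
Mcm6, chr1:128359706-128359855, minus strand: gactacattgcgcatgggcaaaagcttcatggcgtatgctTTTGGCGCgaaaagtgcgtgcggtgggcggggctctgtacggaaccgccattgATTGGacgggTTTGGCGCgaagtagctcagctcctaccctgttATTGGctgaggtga
Pola1, chrX:93632156-93632305, minus strand: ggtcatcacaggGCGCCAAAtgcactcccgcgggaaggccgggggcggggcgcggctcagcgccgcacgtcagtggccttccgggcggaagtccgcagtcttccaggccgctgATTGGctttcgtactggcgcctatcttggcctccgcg

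Over whole windows, from 250 bases before the start to 50 after it, a RefSeq promoter was at hand for 36 of the 43 genes. A CHR-type motif was present in 15 of 17 mitotic windows (88.2%), in 5 of 16 S phase windows (31.2%) and in 27.6% of all 32851 windows of the same length. CCAAT was present in 15 of 17 mitotic windows, in 11 of 16 S phase windows (68.8%) and in 37.4% of all windows. The E2F-type motif was in none of the 17 mitotic windows, in 7 of 16 S phase windows (43.8%) and in 1.56% of all windows. No overlap between motifs was removed, and a match is a description of the letters in the window, not of a bound site.

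The libraries held 27346804 to 35440257 counts, of which the 43 genes took 0.131% to 0.172%. Levels between libraries are given below in CPM, that is, counts set to a common library total after scaling by edgeR's TMM factor, and levels between genes in the deposited TPM, which accounts for gene length. WT replicate 2 stood apart from the other libraries: its TMM factor was 0.835 against 1.02 to 1.06 elsewhere, and the 11 measured macrophage and monocyte markers took 3.28% of its counts against 0.361% to 1.07% in the other 4. Endothelial identity was present in each library: Cdh5, the endothelial cadherin, was at 523, 303 and 770 TPM in WT and at 1091 and 1010 TPM in TET2KO. The 12 endothelial markers took 0.177% of the counts of WT replicate 2 against 0.293% to 0.512%. In CPM each of the 12 had its TET2KO values above all 3 WT values, as did 12.4% of all genes tested. Tet2 itself was at 148 ± 22.3 CPM (SD, n = 3) in WT and 151 ± 16.5 (n = 2) in TET2KO, a log2 fold change of 0.02 (SE 0.19, adjusted p = 0.988 by edgeR). A count over the whole gene cannot show the loss of an unnamed exon, so it checks nothing about the labels. In the authors' deposited table, the fold changes matched WT replicate 3 grouped with TET2KO over WT replicates 1 and 2 (median absolute difference 0.000149 on the log2 scale over 18019 genes) and not the labelled groups (0.201). The labelled groups are used here, and the lists are also described without WT replicate 2 or 3. The log2 fold changes of single genes below depend on these libraries too: 39 of the 43 changed sign or moved over 1.5 times without WT replicate 2, and 29 without WT replicate 3.

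No cell cycle gene was called different between TET2KO and WT. By the quasi-likelihood test of edgeR, with p-values adjusted by Benjamini-Hochberg over 18727 genes, 0 of the 43 passed an adjusted p under 0.05, as did 0% of all genes tested, and the lowest adjusted p among the 43 was 0.875. At an unadjusted p under 0.05 the count was also 0 of 43, beside 5.69% of all genes tested (5.19% higher and 0.502% lower in TET2KO). DESeq2 called 0 of the 43 and 0.34% of the genes it gave an adjusted p, and limma-voom called 0 of the 43 and 0% of all. The median log2 fold change (TET2KO minus WT) was −0.24 for the mitotic genes, −0.28 for the S phase genes and 0.06 for the inhibitors, against −0.08 for all genes tested. The fold change lay above 0 for 5 of 21 mitotic genes, 0 of 18 S phase genes and 3 of 4 inhibitors, against 41.6% of all genes. These counts depend on the scale. As log2(TPM + 1), 17 of 21 mitotic and 8 of 18 S phase genes lay above 0, with an all-gene median of 0.13. On library totals without the TMM factor, 10 of 21 and 3 of 18 did, with an all-gene median of 0.06. The SE of a single gene's log2 fold change ran from 0.17 to 0.81, with a median of 0.49 in mitosis, 0.30 in S phase and 0.32 among the inhibitors.

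**Figure D1:**
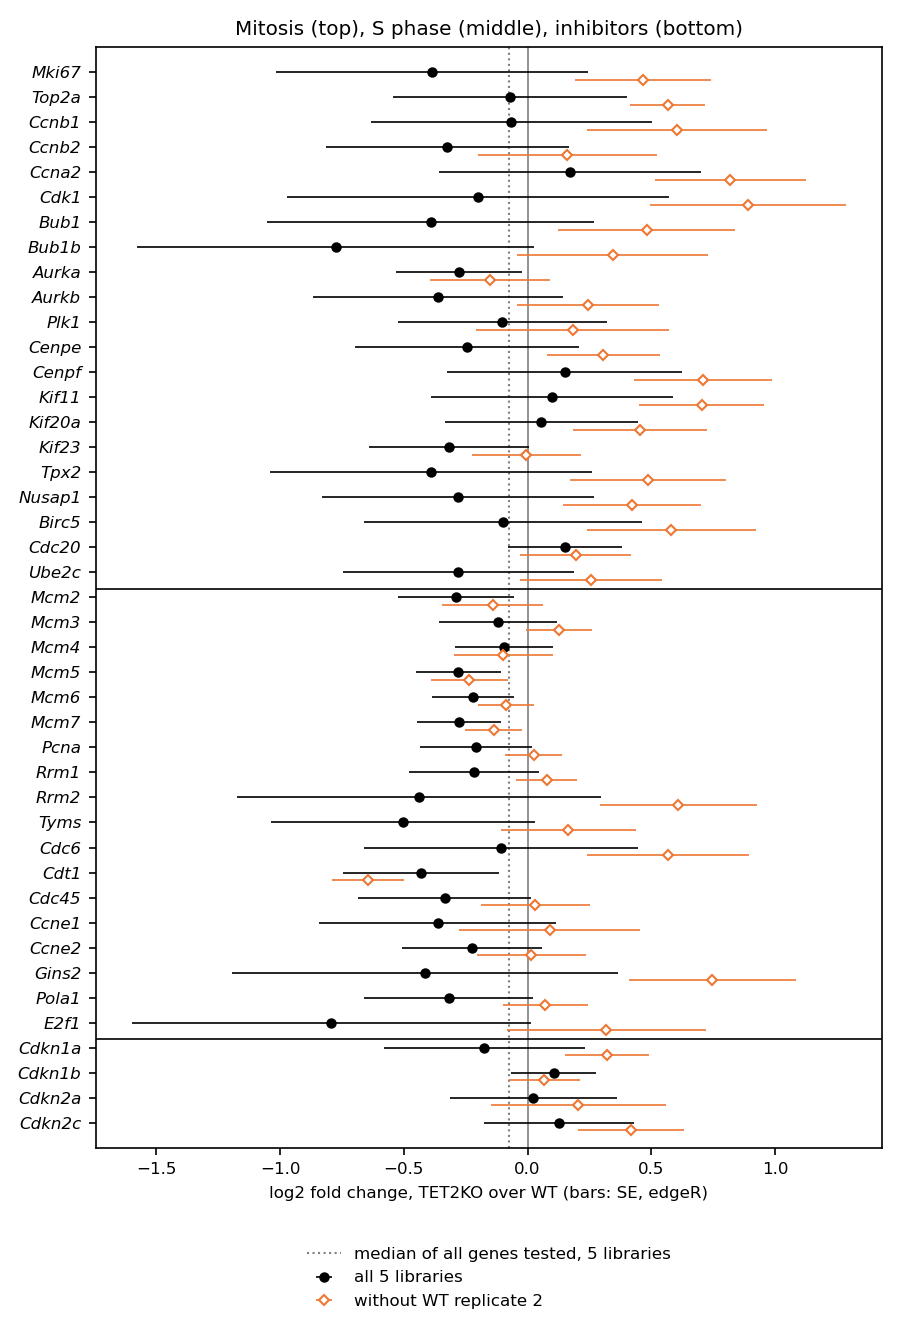
Log2 fold change (TET2KO minus WT, edgeR, ± SE) of each of the 43 genes, from all 5 libraries and again without WT replicate 2. With all 5 libraries 8 of 43 genes lie above 0, and without WT replicate 2 the number is 35.

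What did separate the libraries was WT replicate 2. It was the highest of the 5 libraries for 39 of the 43 genes, against 35% of all genes tested: 20 of 21 mitotic genes, 16 of 18 S phase genes and 3 of 4 inhibitors. WT replicate 3 was the lowest library for 19 of 21 mitotic genes, against 23.8% of all genes, and for 6 of 18 S phase genes. In CPM, the highest and the lowest library were both WT for 19 of 21 mitotic genes, the exceptions being Aurka and Cdc20. TET2KO replicate 2 was above TET2KO replicate 1 for 21 of 21 mitotic genes. Part of this order depends on scaling: on the TPM scale WT replicate 2 was the highest library for 14 of 21 mitotic and 11 of 18 S phase genes, against 17.5% of all genes, and on unscaled library totals for 16 of 21 and 12 of 18, against 21.2%.

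**Figure D2:**
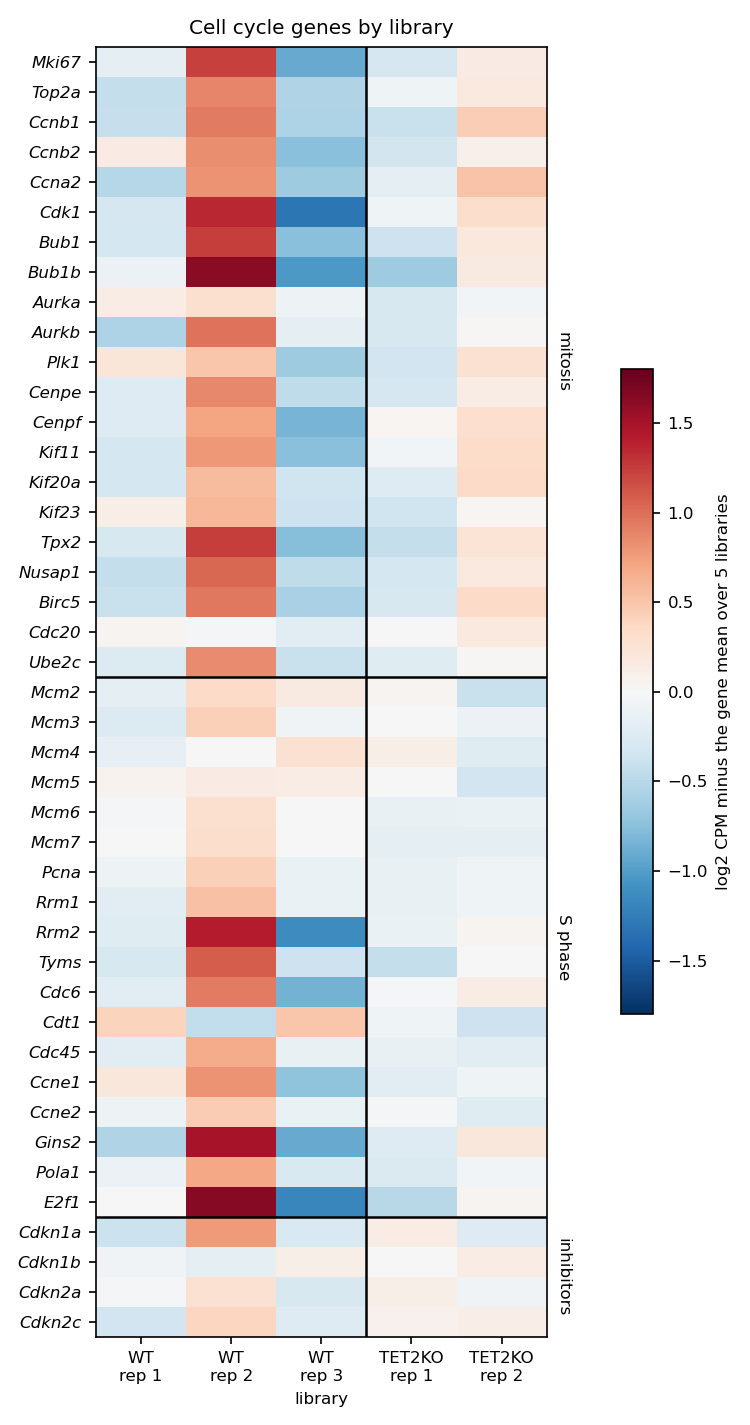
Log2 CPM of each of the 43 genes in each of the 5 libraries, as the difference from that gene's mean, on a colour scale. The column of WT replicate 2 is the highest for 39 of 43 genes, and that of WT replicate 3 the lowest for 26.

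Among the mitotic genes, Mki67, which encodes the Ki-67 protein that coats mitotic chromosomes and serves as the usual mark of cycling cells (chr7:135689784-135716361, GRCm38), had the most reads. It was at 50.6, 133 and 30.3 CPM in WT replicates 1, 2 and 3 and at 46.0 and 63.1 in TET2KO replicates 1 and 2. Both TET2KO values lay inside the WT range, and the log2 fold change was −0.39 (SE 0.63, adjusted p = 0.913 by edgeR). Top2a, the topoisomerase that untangles sister chromatids, was at 21.9, 54.1 and 20.2 CPM across WT and at 27.8 and 33.3 in TET2KO. Its TET2KO libraries exceeded WT replicates 1 and 3 but not WT replicate 2, and its log2 fold change was −0.07 (SE 0.47).

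Cdk1, the kinase that drives entry into mitosis, was at 3.08, 9.79 and 1.56 CPM across WT and at 3.62 and 4.76 in TET2KO. The highest library exceeded the lowest 6.30-fold, and both were WT. Its cyclin partners had the same 2 extremes: Ccnb2 was at 6.30, 10.1 and 3.37 CPM across WT and at 4.50 and 6.04 in TET2KO. The log2 fold changes were −0.20 for Cdk1 (SE 0.77), −0.06 for Ccnb1 (SE 0.57), −0.32 for Ccnb2 (SE 0.49) and 0.17 for Ccna2 (SE 0.53), the cyclin that acts in both S phase and early mitosis.

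The spindle checkpoint holds anaphase until every chromosome is attached. Bub1b, which encodes the checkpoint protein BUBR1, was at 21.6, 71.7 and 11.3 CPM across WT and at 14.9 and 25.9 in TET2KO. WT replicate 2 was 3.89 times the mean of the other 4 libraries, and the log2 fold change was −0.77 (SE 0.80, adjusted p = 0.875 by edgeR), the lowest of the mitotic genes. The checkpoint kinase Bub1 had a log2 fold change of −0.39 (SE 0.66). Cdc20, the activator of the anaphase-promoting complex that the checkpoint restrains, was at 5.67, 5.37 and 4.76 CPM across WT and at 5.52 and 6.17 in TET2KO. It was the mitotic gene with the narrowest spread, 1.29-fold, and the only mitotic gene whose highest library in CPM was not WT replicate 2. Ube2c, the ubiquitin-conjugating enzyme of the same complex, had a log2 fold change of −0.28 (SE 0.47).

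In CPM, each of the mitotic kinases and the spindle genes was highest in WT replicate 2. In TPM, Aurka was highest in WT replicate 1, and Plk1, Kif11, Kif20a and Cenpf were highest in TET2KO replicate 2. Aurka, the centrosomal Aurora kinase, was at 5.43, 6.08 and 4.67 CPM across WT and at 4.07 and 4.82 in TET2KO. Aurkb, the Aurora kinase of the chromosomal passenger complex, was at 3.22, 9.32 and 4.25 CPM across WT and at 3.89 and 4.82 in TET2KO. The groups overlapped for both, with log2 fold changes of −0.28 for Aurka (SE 0.25) and −0.36 for Aurkb (SE 0.51). Birc5 (survivin), a partner of Aurora B, was at −0.10 (SE 0.56), and the polo-like kinase Plk1 at −0.10 (SE 0.42), both as log2 fold changes. Kif23, a kinesin of the central spindle, was at 25.2, 35.6 and 18.1 CPM across WT and at 18.2 and 24.0 in TET2KO. Its log2 fold change was −0.32 (SE 0.32), and without WT replicate 2 it was −0.0048, while that of Aurka was −0.15. The other motor and spindle genes had log2 fold changes of 0.10 for Kif11 (SE 0.49), 0.06 for Kif20a (SE 0.39), −0.39 for Tpx2 (SE 0.65) and −0.28 for Nusap1 (SE 0.55). The kinetochore genes Cenpe and Cenpf were at −0.24 (SE 0.45) and 0.15 (SE 0.48) on the same scale.

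The S phase genes differed in how much they varied. Mcm2 to Mcm7 encode the 6 subunits of the helicase that opens DNA at replication origins, and their highest library exceeded their lowest by 1.34-fold to 1.68-fold, against a median of 1.95-fold over all genes tested and 2.81-fold over the mitotic genes. Mcm7 was at 52.7, 65.8 and 53.4 CPM across WT and at 47.4 and 47.1 in TET2KO, a log2 fold change of −0.28 (SE 0.17, adjusted p = 0.875 by edgeR). Mcm5 was at 36.7, 39.0 and 38.6 CPM across WT and at 35.1 and 27.7 in TET2KO, with a log2 fold change of −0.28 (SE 0.17). Mcm6 was at 54.1, 66.9 and 54.9 CPM across WT and at 50 and 50.7 in TET2KO, with a log2 fold change of −0.22 (SE 0.17). In these 3 genes both TET2KO libraries lay below all WT libraries, as in 12.4% of all genes tested, and the groups of the other 40 genes overlapped. Without WT replicate 2 the log2 fold changes were −0.14 for Mcm7, −0.24 for Mcm5 and −0.09 for Mcm6, and that of Mcm5 was −0.12 without TET2KO replicate 2 and −0.46 without TET2KO replicate 1. On the TPM scale only Mcm7 of the 3 kept that order, as did 2.30% of all genes, and on library totals Mcm6 and Mcm7 did, as did 4.30%.

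The other helicase subunits overlapped between the groups. Mcm4 was at 45.7, 50.3 and 61.1 CPM across WT and at 54.3 and 43.8 in TET2KO. Mcm3 was at 39.3, 62.4 and 44.4 CPM across WT and at 46.5 and 43.3 in TET2KO. Their log2 fold changes were −0.09 for Mcm4 (SE 0.20), −0.12 for Mcm3 (SE 0.24) and −0.29 for Mcm2 (SE 0.23), the last moving to −0.14 without WT replicate 2.

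Pcna, the sliding clamp that holds DNA polymerase on its template, had the highest level of the S phase genes, at 202, 219 and 192 TPM in WT and 204 and 212 TPM in TET2KO. In CPM it was at 138, 199 and 135 in WT and at 134 and 139 in TET2KO, so that 4 of the 5 libraries were nearly equal. The log2 fold change was −0.21 (SE 0.23). Pola1, the catalytic subunit of the polymerase that lays down primers, was at −0.32 (SE 0.34). Cdc45 and Gins2, which join the MCM ring to form the active helicase, had log2 fold changes of −0.33 (SE 0.35) and −0.41 (SE 0.78).

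The nucleotide supply genes differed in spread. Rrm1, the large subunit of ribonucleotide reductase, varied 1.66-fold over the 5 libraries, whereas Rrm2, the subunit whose level follows S phase, varied 5.83-fold. Rrm2 was at 9.0, 27.9 and 4.79 CPM across WT and at 9.66 and 10.9 in TET2KO. The log2 fold changes were −0.22 for Rrm1 (SE 0.26), −0.44 for Rrm2 (SE 0.73) and −0.50 for Tyms (SE 0.53), the thymidylate synthase.

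E2f1, the transcription factor that switches on S phase genes, had the widest spread of all 43 genes. It was at 16.7, 52.2 and 7.46 CPM across WT and at 11.9 and 17.5 in TET2KO, a range of 6.99-fold that lay wholly within WT. Its log2 fold change, −0.79 (SE 0.81, adjusted p = 0.875 by edgeR), was the lowest of the 43. Cyclin E, which E2F1 induces, is encoded by Ccne1 and Ccne2, with log2 fold changes of −0.36 (SE 0.48) and −0.22 (SE 0.28). Cdk1, E2f1, Rrm2 and the promoters shown were singled out after their values had been seen.

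Cdt1 ran against the rest. With Cdc6 (log2 fold change −0.11, SE 0.55) it loads the MCM ring onto origins in G1 and is then destroyed. Cdt1 was at 99.6, 55.4 and 106 CPM across WT and at 71.2 and 57.9 in TET2KO, so that WT replicate 2, the highest library for 16 of the 18 S phase genes, was here the lowest, as for 32.9% of all genes tested. The log2 fold change was −0.43 (SE 0.32, adjusted p = 0.875 by edgeR) with all libraries and −0.23 without WT replicate 3. Cdt1 lies within Gm20388, an annotated gene on the same strand, and reads shared by both cannot be assigned from the gene symbol alone.

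**Figure D3:**
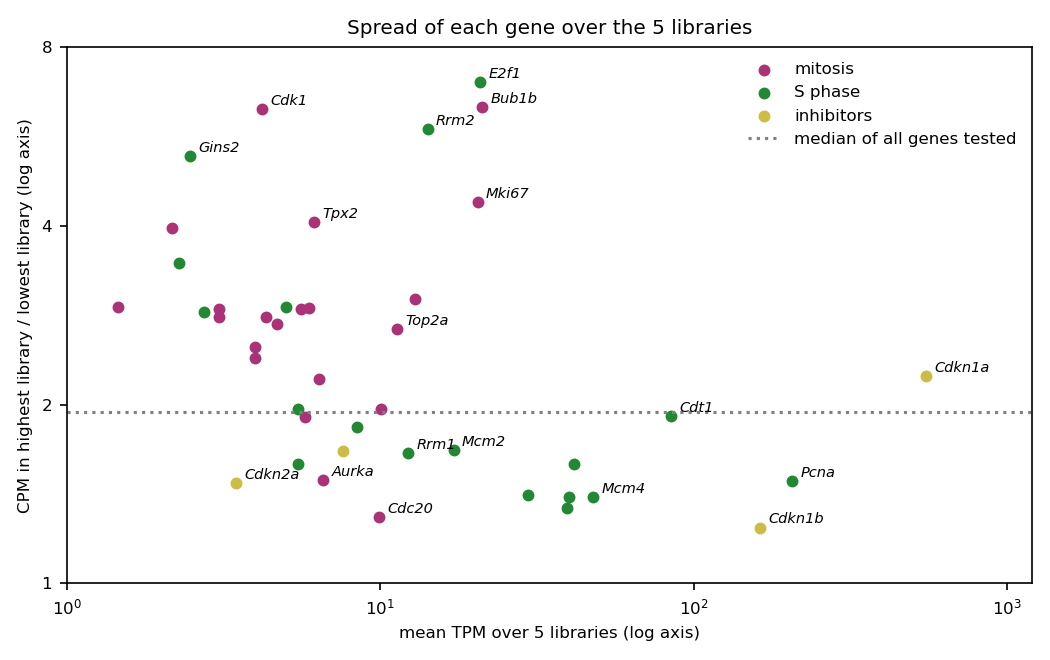
Mean TPM over the 5 libraries (log axis) against the ratio of the highest to the lowest library in CPM (log axis) for each of the 43 genes, with the median of all genes tested, 1.95, as a dotted line. E2f1, Bub1b, Cdk1, Rrm2 and Gins2 lie above 5, and the MCM genes, Cdc20 and Cdkn1b lie below the line.

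The inhibitors had both the most and the fewest reads of the 43 genes. Cdkn1a, which encodes p21, the inhibitor induced by p53, was at 430, 724 and 451 TPM in WT and at 643 and 502 TPM in TET2KO, the highest mean of the 43 genes. In CPM it was at 273, 611 and 295 in WT and at 391 and 306 in TET2KO, with a log2 fold change of −0.17 (SE 0.41, adjusted p = 0.940 by edgeR). Its highest library was WT replicate 2, as for 20 of the 21 mitotic genes. Cdkn1b, which encodes p27, the inhibitor of quiescent cells, was at 210, 193 and 235 CPM across WT and at 218 and 240 in TET2KO. It varied least of the 43 genes, 1.24-fold, was lowest in WT replicate 2, and had a log2 fold change of 0.11 (SE 0.17).

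Cdkn2c, which encodes p18, an inhibitor of CDK4 and CDK6, was at 4.73, 7.90 and 5.11 CPM across WT and at 6.34 and 6.57 in TET2KO, with a log2 fold change of 0.13 (SE 0.30). On the TPM scale the TET2KO values exceeded every WT value for 3 of the 43 genes, Cdkn2c, Cdkn2a and Cdc20, against 20.8% of all genes. Cdkn2a, a marker of senescence, was at 1.19, 1.45 and 0.984 CPM across WT and at 1.30 and 1.16 in TET2KO, from 188 reads in all. Its log2 fold change was 0.02 (SE 0.34), and the p16 and p19ARF transcripts of the gene are not separated in these counts. In TPM, the ratio of Cdkn1a to Mki67 was 24.5, 20.8 and 44.1 in WT and 38.5 and 21.9 in TET2KO, and the groups overlapped.

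**Figure D4:**
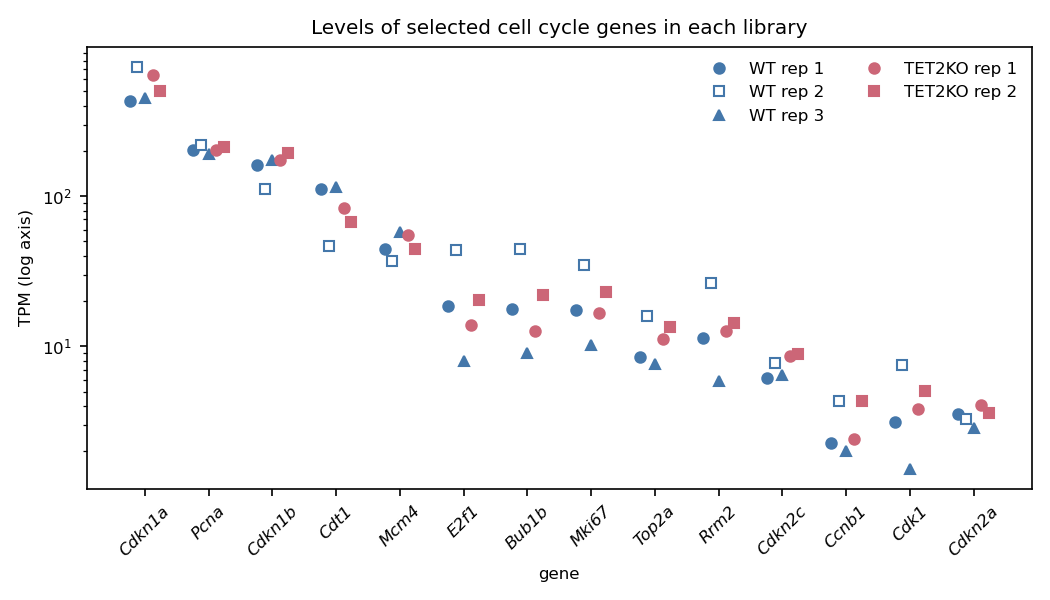
TPM (log axis) of 14 of the 43 genes in each library, placed roughly from high to low TPM, with WT in blue and TET2KO in red. Cdkn1a lies at 430 to 724 TPM and Cdkn2a at 2.86 to 4.05 TPM. The open square of WT replicate 2 is the highest point for E2f1, Bub1b, Mki67, Rrm2 and Cdk1, among others. It is the lowest point for Cdt1, Cdkn1b and Mcm4.

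Without WT replicate 2 the direction turned. The median log2 fold change became 0.45 for the mitotic genes, 0.05 for the S phase genes and 0.26 for the inhibitors, and 19 of 21, 12 of 18 and 4 of 4 lay above 0, against 50.7% of all genes tested. Both TET2KO libraries then exceeded both remaining WT libraries for 10 of 21 mitotic genes, 3 of 18 S phase genes and 2 of 4 inhibitors, against 20.3% of all genes, and lay below them for 4 S phase genes, against 24.4%. edgeR still called 0 of the 43 at an adjusted p under 0.05, and 5 of the 43 reached an unadjusted p under 0.05, against 10.1% of all genes. These were Top2a (log2 fold change 0.57, SE 0.15, adjusted p = 0.421), Ccna2 (0.82, SE 0.31, adjusted p = 0.482), Cenpf (0.71, SE 0.28, adjusted p = 0.492) and Kif11 (0.70, SE 0.25, adjusted p = 0.470), which were higher in TET2KO, and Cdt1 (−0.64, SE 0.15, adjusted p = 0.407), which was lower. Cdk1 had the largest log2 fold change of the 43 in that fit, 0.89 (SE 0.40, adjusted p = 0.521). Without WT replicate 3, 1 of 21 mitotic genes lay above 0, with a median log2 fold change of −0.46. The sign of the mitotic difference therefore rested on which WT libraries were counted.

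The 2 larger lists were also set side by side in each library. As the mean over genes of log2 CPM minus the gene's own mean, the mitotic genes stood at −0.22, 0.86 and −0.59 in WT replicates 1, 2 and 3 and at −0.26 and 0.21 in TET2KO replicates 1 and 2. The S phase genes stood at −0.10, 0.62 and −0.27 in WT and at −0.14 and −0.11 in TET2KO. In TET2KO replicate 2 the mitotic genes were above their mean and the S phase genes below it. The difference between the lists was −0.06 ± 0.29 (SD, n = 3) in WT and 0.10 ± 0.31 (n = 2) in TET2KO, a gap smaller than the spread within either group.

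Markers of other cell types also differed between the libraries, and those of macrophages and monocytes had the same highest and lowest library as the mitotic genes. On the same centred log2 scale the 11 measured markers stood at 0.14, 1.25 and −0.91 in WT and at −0.57 and 0.09 in TET2KO, and 9 of the 11 were highest in WT replicate 2. Lyz2, the macrophage lysozyme, was at 14525, 37909 and 4728 TPM in WT and at 8206 and 13328 TPM in TET2KO. The summed level of the 11 markers ran from 8020 to 70241 TPM in WT and from 12687 to 23431 TPM in TET2KO, and none was at 0 in any library. The 7 B cell markers ran the other way, at 0.55, −1.20 and 0.84 in WT and at 0.25 and −0.43 in TET2KO. All 10 T and NK cell markers were also lowest in WT replicate 2. The 5 pan-leukocyte markers stood at 0.16, 0.08 and 0.17 in WT and at −0.15 and −0.27 in TET2KO. For 3 of these 5 both TET2KO libraries lay below all WT libraries, as for 12.4% of all genes tested, and edgeR called 0. Endothelial markers stood at −0.36, −0.62 and 0.01 in WT and at 0.45 and 0.53 in TET2KO. The 11 epithelial and mesothelial markers were also lowest in WT replicate 3 and higher in TET2KO replicate 2 than in TET2KO replicate 1. They stood at −0.01, −0.37 and −0.81 in WT and at 0.19 and 1.00 in TET2KO, with 7 of the 11 lowest in WT replicate 3. Their summed level ran from 2305 to 4217 TPM in WT and from 4671 to 10316 TPM in TET2KO, and edgeR called 0 of the 11 (5 at an unadjusted p under 0.05) and DESeq2 2. The 9 fibroblast and mural cell markers stood at 0.03, −0.09 and −0.59 in WT and at 0.33 and 0.32 in TET2KO. The part of macrophages, epithelium or other cells in the cell cycle values was not tested, and in bulk RNA fewer dividing cells and less RNA per dividing cell cannot be told apart.

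**Figure D5:**
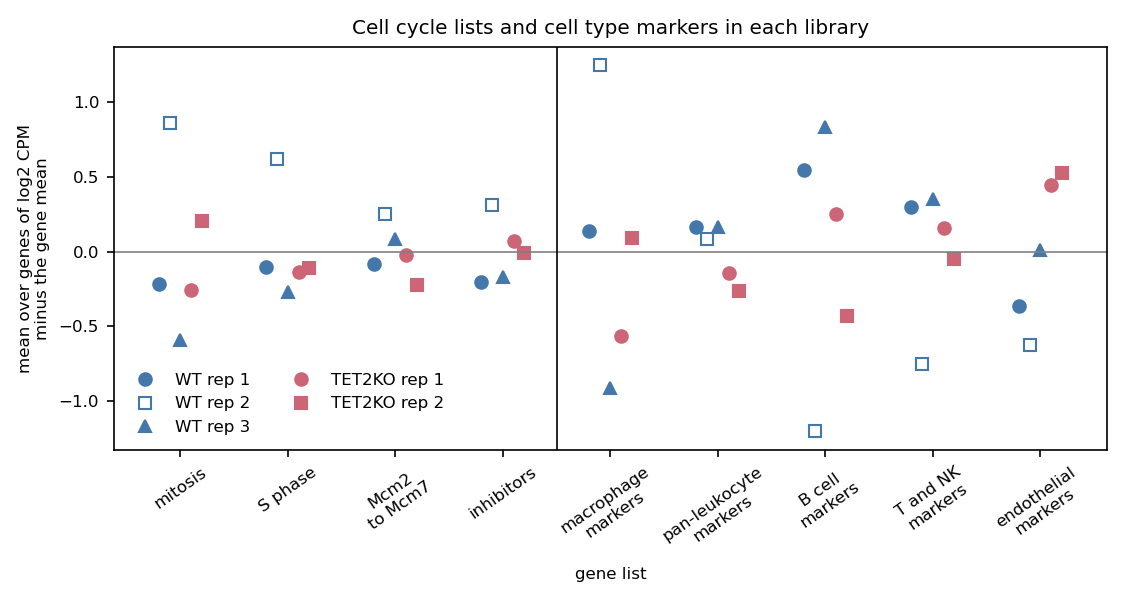
Mean over the genes of each list of log2 CPM minus the gene's mean (vertical axis), for 4 cell cycle lists and 5 cell type marker lists in each of the 5 libraries. The open square of WT replicate 2 stands at 0.86 for mitosis and 1.25 for macrophage markers, and at −1.20 for B cell markers.

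The other genes of the cycle were taken from 4 further lists, 100 genes in all, chosen by known function with earlier results of these data known. edgeR called 0 of the 100 at an adjusted p under 0.05, as did DESeq2 and limma-voom, and 3 of the 100 had an unadjusted p under 0.05, all higher in TET2KO, as did 5.19% of all genes tested. In CPM, WT replicate 2 was the highest library for 69 of the 100, against 35% of all genes tested. The all-gene share was 17.5% in TPM and 21.2% on unscaled library totals, scales on which the 100 were not counted. Both TET2KO libraries were below WT for 12 of the 100 and above WT for 5, beside the 12.4% of all genes in each direction. The median log2 fold change was −0.18 over 35 other mitotic genes, −0.23 over 32 other S phase genes, −0.09 over 17 genes of G1 cyclins, kinases, RB and E2F, and −0.21 over 16 other inhibitors and p53 targets.

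Ccnd1, the cyclin D1 that couples growth signals to the cycle, was at 28.1, 17.6 and 23.8 CPM across WT and at 41.7 and 46.2 in TET2KO, above all WT libraries. Its log2 fold change was 0.92 (SE 0.23, unadjusted p = 0.00839, adjusted p = 0.778 by edgeR), where 12.4% of all genes had both TET2KO libraries above WT. Gas1, a growth arrest gene, was at 2.28, 1.32 and 0.921 CPM across WT and at 3.50 and 4.38 in TET2KO, with a log2 fold change of 1.39 (SE 0.44, adjusted p = 0.791 by edgeR). Cdkn2b, which encodes the inhibitor p15, was at 3.50, 2.60 and 2.89 CPM across WT and at 4.07 and 6.20 in TET2KO, with a log2 fold change of 0.78 (SE 0.31, adjusted p = 0.875 by edgeR). In the 3 genes the TET2KO libraries lay above all WT libraries, as for the 12 endothelial markers, and none passed the adjusted threshold.

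Some of the remaining genes with the lowest p in each list had both TET2KO libraries below all WT libraries in CPM. So had 12.4% of all genes tested. Among mitotic genes these were Mad2l1 (log2 fold change −0.37, SE 0.29), Ccnf (−0.60, SE 0.39) and Cdc25b (−0.39, SE 0.20). Among S phase genes they were Prim2 (−0.42, SE 0.27), Rfc5 (−0.41, SE 0.23) and Rpa2 (−0.29, SE 0.19). Rbl2, the retinoblastoma-like p130 of quiescent cells, had the same order in CPM (−0.24, SE 0.16). In TPM, Rbl2 was at 40.8 ± 8.77 (SD, n = 3) in WT and 39.5 ± 2.40 (n = 2) in TET2KO. Likewise Rpa2 was at 30.7 ± 8.46 and 28.5 ± 0.303, and Cdc25b at 94.5 ± 24.0 and 82.1 ± 14.3. Mad2l1 was at 3.70 ± 0.426 and 3.39 ± 0.131, and Rfc5 at 13.5 ± 0.322 and 11.8 ± 2.14. For each of these genes such spreads put a TET2KO library above a WT library in TPM. Ccnf (4.23 ± 0.989 and 3.33 ± 0.123) and Prim2 (7.53 ± 0.995 and 6.64 ± 0.270) are not settled by theirs. On the TPM scale 2.30% of all genes had both TET2KO libraries below WT. Cdkn1c, which encodes the inhibitor p57, had both above in CPM (0.56, SE 0.30), as had 12.4% of all genes. E2f2 overlapped (−0.42, SE 0.39). Cdc25b was also among the 2 most abundant of its list. The other most abundant genes overlapped between the groups: Smc4 of condensin (−0.05, SE 0.22), Pold1 of DNA polymerase delta (−0.10, SE 0.34), the histone mRNA binding protein Slbp (−0.08, SE 0.16), Myc (−0.32, SE 0.35), E2f4 (−0.09, SE 0.18), Btg1 (−0.22, SE 0.34) and Btg2 (0.16, SE 0.26).

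For 42 of the 43 genes the coefficient of variation over the 5 libraries exceeded the one that counting error alone gives, Cdkn2a being the exception. Its median was 43.5% for the mitotic genes and 26.8% for the S phase genes, beside counting values of 7.44% and 3.49%. An opposite-strand gene is annotated across part of 16 of the 43, such as Ccna2 with Exosc9, Ccne2 with Ints8 and Gins2 with Gse1, and 8 overlap a gene on the same strand. Reads of opposite-strand partners cannot be told apart, since the strand setting of the counting is not given in the sources used here. Reads shared with a partner on the same strand could not be separated by any strand setting. Processed pseudogenes of Ccnb2 and Pcna held 309 and 55 counts over the 5 libraries, beside 928 for Ccnb2 and 23003 for Pcna themselves.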

How the data were processed

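Per the submitters' processing notes, reads were trimmed with Trimmomatic 0.36, aligned with STAR 2.5.2b to GRCm38 and counted with featureCounts of Subread 1.5.2, and DESeq2 was used. The order of steps, the annotation release and the strand setting are not given in the sources used here. The authors deposited raw counts per gene, TPM values, which have the same sum in each library, and a comparison table with a log2 fold change and a normalized signal per library (counts divided by a size factor), per the file headers and values. Libraries were mapped to groups by the labels.

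The 43 genes and the other lists were chosen with earlier results of these data known. Counts were fitted with edgeR 4.0.16 in R 4.3.3 (filterByExpr, TMM, quasi-likelihood F test, Benjamini-Hochberg over all genes tested, threshold 0.05), and tested on simulated data. The SE is the log2 fold change divided by the root of F. Log2 CPM used a prior count of 2. Alternatives were DESeq2 1.42.0, limma 3.58.1 (voom, and log2(TPM + 1) or log2(TPM + 0.1)), RLE scaling, library totals, a filter of at least 1 CPM in 2 libraries, no filter, leaving out each library, and the replicate number as a block. Values in every library were given for the inhibitors, for the 6 genes of highest mean TPM and the 4 of lowest p in mitosis and in S phase, and the 3 of lowest p and 2 of highest TPM were named in each further list. Gene positions come from GENCODE on GRCm38, and promoter sequences from RefSeq. The bases just after the start were found in a GENCODE transcript of the gene for 32 of the 40 windows of these genes. Siglecf, a macrophage marker, had no row under that symbol. Depth was 27346804 to 35440257 counts.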

Additional observations from a re-analysis of the deposited data

How the results depend on the processing

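edgeR called none of the 43 genes and none of the 100 further cell cycle genes under any alternative run, nor did DESeq2 or limma. DESeq2 called 60 of all genes where edgeR called 0, and DESeq2 on all genes with a count, an alternative chosen after seeing the data, called 23; the cause was not tested. Library totals, log2(TPM + 1) and log2(TPM + 0.1) shifted the median log2 fold change of all genes by 0.14, 0.21 and 0.24, and their values here are relative to that shift; before it, 29 of the 43 genes lay above 0 on either TPM scale, against 8 in CPM. Leaving out each library moved the mitotic median over −0.46 to 0.45 and the difference of medians, mitosis minus S phase, over −0.19 to 0.40, each with its highest value without WT replicate 2, which turned the sign of 27 of the 43 genes. The other libraries turned 4 to 6 signs each. Without 1 TET2KO library the lone one is assumed to vary like WT.

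With limma-voom the log2 fold change turned to 0.079 for Top2a, 0.041 for Ccnb1, 0.21 for Cdk1, 0.038 for Birc5 and 0.086 for Cdc6. With log2(TPM + 1) it turned to 0.055 for Top2a, 0.071 for Cdk1 and −0.012 for Cdkn2a, and with log2(TPM + 0.1) to 0.046 for Top2a, 0.0044 for Ccnb1, 0.15 for Cdk1, 5e-04 for Birc5 and 0.036 for Cdc6. With library totals it was 0.0031 for Ccnb1. None of these differences passed a test, and the cause of each turn was not tested.

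The labels number the libraries within each group and do not say that a number marks a shared source. Deviations of same-numbered libraries from their group means correlated at 0.22 and 0.49 over genes, from 2 pairs only. An unlike-numbered pair, WT replicate 3 with TET2KO replicate 1, was at 0.45. The deviations of the 2 TET2KO libraries are mirror images, so each WT library is bound to correlate positively with 1 of them. These values therefore cannot show that a number marks a shared source. With the replicate number as a block, which leaves WT replicate 3 unpaired, edgeR called 0 of the 43 genes and 0 of all genes, and 3 of the 43 had an unadjusted p under 0.05, beside 15.6% of all genes in that fit. The block turned the log2 fold change to −0.078 for Cenpf, −0.10 for Kif11, −0.069 for Kif20a, 0.024 for Mcm4, −0.10 for Cdkn2a, 0.054 for Myc, 0.01 for E2f4, 0.031 for Btg1, 0.047 for Smc4 and 0.15 for Pold1.

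Log2 fold changes that crossed 0 as each library was left out ran as follows. For mitotic genes they ran from −0.73 to 0.47 (Mki67), −0.29 to 0.57 (Top2a), −0.55 to 0.60 (Ccnb1), −0.61 to 0.16 (Ccnb2), −0.21 to 0.82 (Ccna2), −0.60 to 0.89 (Cdk1), −0.71 to 0.48 (Bub1), −1.23 to 0.34 (Bub1b), −0.64 to 0.25 (Aurkb), −0.44 to 0.18 (Plk1), −0.48 to 0.31 (Cenpe), −0.12 to 0.71 (Cenpf), −0.16 to 0.70 (Kif11), −0.26 to 0.46 (Kif20a), −0.77 to 0.49 (Tpx2), −0.55 to 0.42 (Nusap1), −0.45 to 0.58 (Birc5) and −0.48 to 0.26 (Ube2c). For S phase genes they ran from −0.25 to 0.13 (Mcm3), −0.26 to 0.060 (Mcm4), −0.29 to 0.025 (Pcna), −0.35 to 0.078 (Rrm1), −0.83 to 0.61 (Rrm2), −0.74 to 0.17 (Tyms), −0.41 to 0.57 (Cdc6), −0.49 to 0.032 (Cdc45), −0.65 to 0.089 (Ccne1), −0.32 to 0.015 (Ccne2), −0.77 to 0.75 (Gins2), −0.47 to 0.072 (Pola1) and −1.21 to 0.32 (E2f1). For inhibitors they ran from −0.38 to 0.32 (Cdkn1a), −0.077 to 0.21 (Cdkn2a) and −0.010 to 0.42 (Cdkn2c). Of the further genes, they ran from −0.63 to 0.061 (E2f2), −0.54 to 0.062 (Myc), −0.18 to 0.041 (E2f4), −0.48 to 0.055 (Btg1), −0.17 to 0.057 (Smc4) and −0.33 to 0.15 (Pold1).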
